A study of Mus musculus with 6 samples.

Results

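Glycolysis turns glucose into pyruvate, and the genes examined here encode the glucose transporters, the glycolytic enzymes and their regulators, the lactate enzymes and transporters, and the kinases that gate pyruvate entry into mitochondria. The 34 genes were chosen by their role in these steps, with earlier results of these data known. Of the 34, 32 had a probe set that the platform annotation gives to that gene alone. For 31 of these, among 18193 genes fitted in all, it was an ordinary probe set, and for Gapdh only the 3 control probe sets of the array carried the symbol alone. Gpi1 and Eno1 had no such probe set and were not analysed here. The values are log2 intensities of the brightest probe set of each gene. They can be compared between arrays for a gene but not between genes.

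Back skin was taken whole at postnatal day 2.5 from 6 female littermates on a mixed FVB/N and C57BL/6 background, and each mouse gave 1 array. The 3 caNrf2 mice carried K5cre-caNrf2 (tg/tg), a constitutively active Nrf2 switched on by a Cre recombinase that the keratin 5 promoter drives in basal keratinocytes. The 3 control mice were K5cre-wt (tg/wt), read here as the Cre transgene without caNrf2, so that Cre is shared by both groups. The descriptions of both groups also carry the word weak, whose meaning the labels do not give. The transgene acts in keratinocytes, while the RNA is that of the whole tissue with dermis, fat and muscle. In such samples fewer cells of a type and less RNA per cell cannot be told apart.

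As background, glucose enters cells through facilitative transporters and is trapped by hexokinase as glucose 6-phosphate. From there it can run down glycolysis to pyruvate, be stored as glycogen by way of glucose 1-phosphate, or enter the pentose phosphate pathway, which supplies NADPH and ribose. Nrf2 is known to raise several genes of the pentose phosphate pathway. Keratinocytes rely on glucose transporter 1, and much of their pyruvate leaves as lactate.

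Array medians were 80.7 to 81.9 intensity units. Nqo1, a standard target of Nrf2, was higher by 3.61 (log2) in caNrf2 skin, and Nfe2l2, which encodes Nrf2, by 0.41 with an adjusted p = 0.0539 (limma). Keratinocyte markers were bright, with 7 of 7 basal and 7 of 7 suprabasal markers above the median probe set, and their median differences were 0.05 and 0.04. All 7 markers of each list were higher in caNrf2 skin, none with an adjusted p under 0.05 (limma). Among all genes above the median probe set 55.6% were higher. The precision is limited by the number of arrays, 3 per group.

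Most glycolysis and glucose uptake genes differed little between the genotypes, 26 of the 31 by less than 0.2 on the log2 scale. One gene, Hk1, rose in caNrf2 skin, and none fell (limma over all genes, Benjamini-Hochberg adjusted p under 0.05). That is 1 of 31 members, where 0.374% of all genes passed in either direction 0.346% passed as higher and 0.0275% as lower. Slc2a1 stood just beyond the threshold. Of the 31 members 24 were higher and 7 lower, with a median log2 difference of 0.08, while 47.2% of all genes were higher and their median was -0.01. Most members are bright, and among genes above the median probe set 55.6% were higher, with a median of 0.01. Groups did not overlap for 8 members, all of them higher in caNrf2 skin. The share over all genes was 13.1% in either direction, 6.23% for higher and 6.88% for lower genes, and 8.09% for higher genes above the median probe set. At an unadjusted p under 0.05 there were 6 members, all higher, where 3.26% of all genes were higher, 4.82% were lower and 8.09% passed in either direction. The 95% interval of the difference lay inside 1.5-fold in both directions for 28 of the 31 members and inside 2-fold for all 31. The exceptions at 1.5-fold were Hk1, Slc2a1 and Pdk4.

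**Figure D1:**
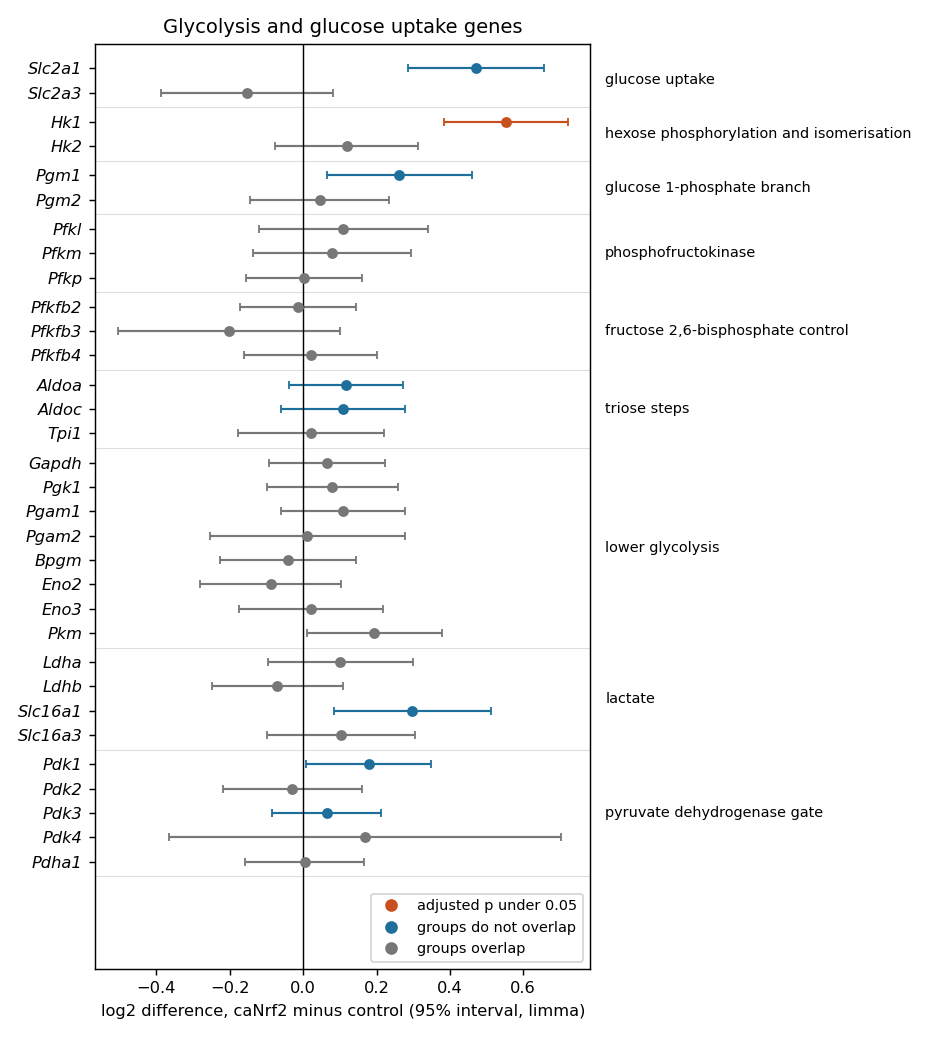
Log2 difference between caNrf2 and control skin for the 32 measured glycolysis and glucose uptake genes, grouped by role, with the 95% interval from limma (3 arrays per group). Hk1 at 0.55 is the one gene past the threshold, Slc2a1 lies next to it at 0.47, and most of the others lie within 0.2 of 0.

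Hexokinase 1, the widespread form of the enzyme that phosphorylates glucose, was the member with the largest difference. Hk1 measured 9.24, 9.26 and 9.16 (log2 intensity) on control arrays 1 to 3, and 9.70, 9.88 and 9.73 on caNrf2 arrays 1 to 3. All caNrf2 arrays lay above all control arrays, with array 2 the highest. In linear intensity the means were 595 ± 21.0 and 874 ± 58.4 (SD, n = 3), a 1.47-fold rise with a 95% interval of 1.30 to 1.65 and an adjusted p = 0.0104 (limma). The log2 difference was 0.55 ± 0.08 (SE). The other probe set that is of Hk1 alone went from a mean of 8.03 to 8.79 and rose by 0.75 ± 0.09 (adjusted p = 0.0045, limma over 45037 probe sets). A further probe set lists Hk1 with Rpl17 and related sequences and differed by 0.05, and its signal cannot be assigned to Hk1. The call of the first probe set was lost when any 1 control array was left out, with adjusted p between 0.0566 and 0.0798, and kept when any 1 caNrf2 array was left out. The difference then ranged from 0.50 to 0.59.

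Slc2a1 encodes glucose transporter 1, the main glucose carrier of the epidermis. It measured 9.54, 9.59 and 9.62 on the control arrays and 9.94, 10.21 and 10.01 on the caNrf2 arrays. The groups did not overlap, and as for Hk1 caNrf2 array 2 was the highest. The difference of 0.47 ± 0.08 (SE), 1.39-fold with a 95% interval of 1.22 to 1.57, had an adjusted p = 0.0501 (limma), and Slc2a1 ranked 69 by p-value among all genes, directly after the 68 that passed. It passed with 5 of the alternative settings and without caNrf2 array 1 (adjusted p = 0.0362), and adjusted p reached 0.285 without control array 1. Its other probe sets separated the groups as well, by 0.36 ± 0.10 and 0.34 ± 0.09, but neither passed (adjusted p = 0.328 and 0.297, limma over 45037 probe sets).

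**Figure D2:**
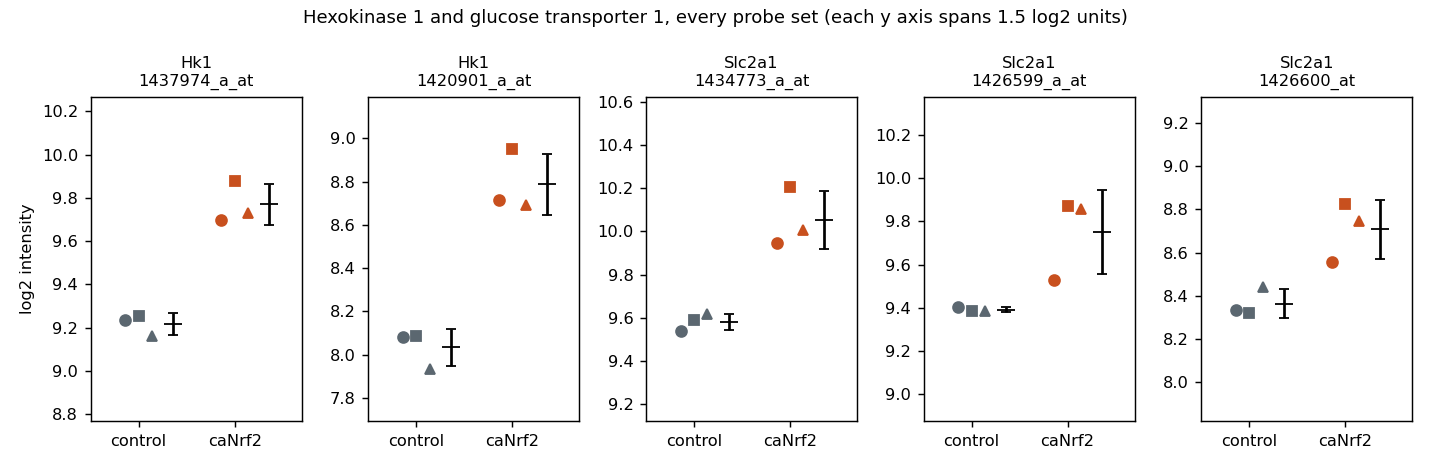
Log2 intensity of each array for the probe sets that carry Hk1 or Slc2a1 alone, with circles, squares and triangles for arrays 1, 2 and 3 of a group and the group mean ± SD in black. On each of these probe sets the 3 caNrf2 arrays lie above the 3 control arrays.

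The related forms Hk2 and Slc2a3 did not pass. Hk2, the inducible hexokinase of muscle, fat and growing cells, measured 9.82, 9.65 and 9.83 in control and 9.75, 9.99 and 9.91 in caNrf2 skin, and these ranges overlap. Its difference was 0.12 ± 0.09 (adjusted p = 0.788, limma). Slc2a3, the transporter best known from neurons and blood cells, lay below the median probe set. It measured 5.79, 5.85 and 5.93 in control and 5.59, 5.95 and 5.57 in caNrf2 skin. Its difference of -0.15 ± 0.11 did not pass (adjusted p = 0.764, limma), and the mean over its probe sets differed by 0.02.

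Since each array holds both forms, the log2 ratio within an array can be compared between groups. This was done for 8 pairs of related members, chosen after their values were seen. The ratio of Hk1 to Hk2 was higher by 0.43 ± 0.09 (SE) in caNrf2 skin and that of Slc2a1 to Slc2a3 by 0.62 ± 0.06, each without overlap of the groups. For both, the exact two-sided permutation p = 0.1 is the smallest that 3 against 3 arrays can give, and p = 0.4 after adjustment over the 8 pairs. The ratio of Slc2a1 to Slc2a3 used the brightest Slc2a3 probe set, which differed by -0.15. The mean over the Slc2a3 probe sets differed by 0.02. For the other 6 pairs the groups overlapped. Slc16a1 over Slc16a3 shifted by 0.19 ± 0.08 and Ldha over Ldhb by 0.17 ± 0.12. The ratio of Aldoa to Aldoc, with a shift of 0.01 ± 0.03, was the steadiest. For Pfkl over Pfkm, Pgam1 over Pgam2 and Eno3 over Eno2 the shifts were 0.03 ± 0.08, 0.10 ± 0.10 and 0.11 ± 0.11.

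Phosphoglucomutase links glucose 6-phosphate with glucose 1-phosphate and so with glycogen. Pgm1, which older annotations call Pgm2, measured 9.35, 9.15 and 9.25 in control and 9.39, 9.66 and 9.48 in caNrf2 skin. The groups separate by a narrow margin, with caNrf2 array 1 close to control array 1. The difference of 0.26 ± 0.09 did not pass (adjusted p = 0.457, limma). Pgm2 differed by 0.04 ± 0.08.

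Slc16a1 encodes monocarboxylate transporter 1, which carries lactate and pyruvate across the plasma membrane. It measured 10.07, 9.99 and 10.17 in control and 10.21, 10.37 and 10.55 in caNrf2 skin, and the groups separated by a narrow margin. Its difference of 0.30 ± 0.10 was the third largest among the members and did not pass (adjusted p = 0.431, limma). Its second probe set lay near the level of silent genes and differed by 0.045. Slc16a3, the exporter of strongly glycolytic cells, differed by 0.10 ± 0.09. Ldha, the lactate dehydrogenase subunit that favours lactate formation, measured 12.11, 11.86 and 11.93 against 11.95, 12.10 and 12.15, with overlap of the groups and a difference of 0.10 ± 0.09. Ldhb, the subunit of oxidative tissues, differed by -0.07 ± 0.08.

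The upstream sequences of the 3 members with the largest differences are shown. They are the 250 bases before an annotated start, 5′ to 3′ on the gene's strand, from RefSeq on GRCm38.p6, and Hk1 has a pair of annotated starts in that table. Capitals mark TGACNNNGC, the core of the antioxidant response element that Nrf2 binds, and ACGTG, the core of the hypoxia response element, which also lies inside the E-box CACGTG. Both strands were searched.
Hk1, chr10:62379909-62380158, minus strand: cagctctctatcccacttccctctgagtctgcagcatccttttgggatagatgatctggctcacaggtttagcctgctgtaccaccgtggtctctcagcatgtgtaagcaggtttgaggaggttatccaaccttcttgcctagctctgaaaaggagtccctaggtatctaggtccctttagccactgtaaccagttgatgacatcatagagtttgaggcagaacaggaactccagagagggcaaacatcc
Hk1, chr10:62340422-62340671, minus strand: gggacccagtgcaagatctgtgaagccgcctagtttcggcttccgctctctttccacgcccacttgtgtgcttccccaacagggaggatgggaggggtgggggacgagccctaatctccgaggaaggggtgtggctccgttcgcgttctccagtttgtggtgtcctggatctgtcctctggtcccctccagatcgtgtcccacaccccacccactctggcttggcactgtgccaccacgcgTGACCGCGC
Slc2a1, chr4:119108495-119108744, plus strand: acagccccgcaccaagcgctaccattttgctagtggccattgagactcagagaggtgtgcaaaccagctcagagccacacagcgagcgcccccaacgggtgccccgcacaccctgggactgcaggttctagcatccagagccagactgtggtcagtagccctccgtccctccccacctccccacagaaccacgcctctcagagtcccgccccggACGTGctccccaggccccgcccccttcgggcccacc
Slc16a1, chr3:104638414-104638663, plus strand: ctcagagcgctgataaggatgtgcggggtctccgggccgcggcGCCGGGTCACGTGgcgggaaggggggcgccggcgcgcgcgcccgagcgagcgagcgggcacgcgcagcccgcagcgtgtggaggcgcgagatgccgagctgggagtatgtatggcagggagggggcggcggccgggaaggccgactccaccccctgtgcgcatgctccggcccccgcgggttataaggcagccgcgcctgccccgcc

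The first of the Hk1 windows held none of these motifs, and the second held 1 antioxidant core, TGACCGCGC, whose last base is position 1 before the start. The Slc2a1 window held 1 hypoxia core, 36 to 32 bases before the start. In the Slc16a1 window the antioxidant core on the minus strand, 207 to 199 bases before the start, overlapped an E-box at 200 to 195. Over all members with a promoter in the table, 33 genes with 49 windows, the antioxidant core was in 4 windows (8.16%), those of Aldoa, Hk1, Pgm2 and Slc16a1, against 10.2% of all 32851 windows. The hypoxia core was in 20 windows (40.8%) of 16 genes, against 16.6% of all windows. The E-box was in 6 windows (12.2%) against 6.02%. A match is a run of letters and not a measured binding site, and base composition was not matched here.

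The commitment step held no gene that passed. Phosphofructokinase converts fructose 6-phosphate to fructose 1,6-bisphosphate in a step that commits sugar to glycolysis. Pfkm, its muscle form, measured 10.38, 10.31 and 10.32 in control and 10.22, 10.61 and 10.41 in caNrf2 skin, so that the control range lies inside the caNrf2 range. The differences of Pfkl, Pfkm and Pfkp were 0.11 ± 0.10, 0.08 ± 0.10 and 0.00 ± 0.07. The Pfkfb enzymes set the level of fructose 2,6-bisphosphate, an activator of phosphofructokinase. Pfkfb3, the form with the strongest kinase side, had the lowest difference of all members, -0.20 ± 0.14 (adjusted p = 0.758, limma). It measured 7.61, 7.07 and 7.18 in control and 6.996, 7.29 and 6.97 in caNrf2 skin, with control array 1 standing above the others. Without that array its difference was -0.04. Pfkfb4 measured 7.84, 7.90 and 7.89 against 7.78, 8.04 and 7.88, a difference of 0.02 ± 0.08, and Pfkfb2 differed by -0.01 ± 0.07.

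Aldolase splits fructose 1,6-bisphosphate into triose phosphates. Aldoa, the main form outside the liver, measured 12.98, 12.93 and 12.95 in control and 13.01, 13.14 and 13.07 in caNrf2 skin. The groups did not overlap, yet the difference was small at 0.12 ± 0.07 (adjusted p = 0.717, limma). Of its 5 probe sets 3 separated the groups, by 0.12 to 0.19, and another differed by -0.08. Aldoc, the form known from brain, differed by 0.11 ± 0.08. Its groups barely separated, with 8.455 on control array 1 and 8.458 on caNrf2 array 1. Triose phosphate isomerase, Tpi1, differed by 0.02 ± 0.09.

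The lower steps of the pathway, which yield ATP and pyruvate, held no gene that passed. Pyruvate kinase, Pkm, measured 11.69, 11.52 and 11.55 in control and 11.66, 11.80 and 11.88 in caNrf2 skin. Only caNrf2 array 1 lay within the control range, and the difference of 0.19 ± 0.08 did not pass (adjusted p = 0.6, limma). Phosphoglycerate kinase Pgk1 differed by 0.08 ± 0.08 and phosphoglycerate mutase Pgam1 by 0.11 ± 0.08. Bpgm, which makes the 2,3-bisphosphoglycerate of red cells, differed by -0.04 ± 0.08, and the neuronal enolase Eno2, below the median probe set, by -0.09 ± 0.09. Gapdh, often used as a reference gene, measured 13.57, 13.50 and 13.50 in control and 13.51, 13.62 and 13.63 in caNrf2 skin on its brightest control probe set. Its difference was 0.06 ± 0.07 (adjusted p = 0.872, limma with control probe sets kept), with a 95% interval of -0.09 to 0.22, and the other control sets gave 0.04 and 0.03. The difference between its 3 prime and 5 prime control sets, a sign of RNA quality, moved by -0.03 without overlap of the groups (exact two-sided permutation p = 0.1, the smallest possible). That of Actb moved by 0.00 (exact p = 1).

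Eno3, Pgam2 and Pfkm are the muscle forms of enolase, phosphoglycerate mutase and phosphofructokinase, and back skin includes a sheet of skeletal muscle. Relative to the control mean, Eno3 stood at 0.05, -0.03 and -0.02 on control arrays 1 to 3 and at -0.16, 0.13 and 0.09 on caNrf2 arrays 1 to 3. Pgam2 stood at -0.30, 0.12 and 0.21 on the caNrf2 arrays. The median of 20 skeletal muscle markers, of which 19 lay above the median probe set, stood at 0.05, -0.03 and -0.02 on the control arrays and -0.11, 0.08 and 0.15 on the caNrf2 arrays. The mean marker level was 10.65 to 10.81 in control and 10.62 to 10.87 in caNrf2 skin, and none of the 20 was at the level of silent genes. On caNrf2 array 1 the muscle forms and the markers were both low. This was not particular to muscle. Among the caNrf2 arrays, array 1 was the lowest for 20 of the 31 members, array 2 for 3 and array 3 for 8. Tpi1 stood at -0.14, 0.09 and 0.11 on caNrf2 arrays 1 to 3. The macrophage marker median stood at -0.17, 0.11 and 0.06, but that of suprabasal keratinocyte markers at 0.07, -0.05 and 0.08. The part of muscle content in the values of Eno3, Pgam2 and Pfkm was not tested. Between groups, Eno3 differed by 0.02 ± 0.09 and Pgam2 by 0.01 ± 0.12.

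**Figure D3:**
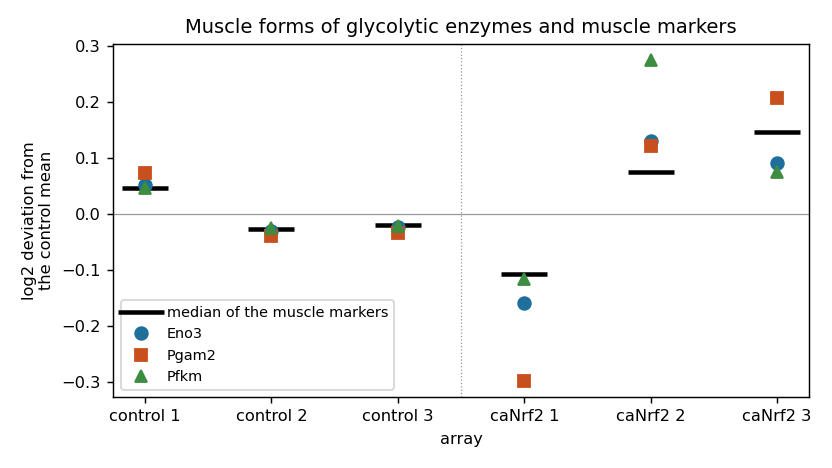
Deviation from the control mean, in log2 units, of Eno3, Pgam2 and Pfkm on each array, with the median of the 20 skeletal muscle markers as a black bar. On caNrf2 array 1 all of them lie below 0, with Pgam2 at -0.30, and on caNrf2 arrays 2 and 3 all lie above 0.

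The pyruvate dehydrogenase kinases switch off the enzyme complex that feeds pyruvate into the citric acid cycle. Pdk1, a kinase raised in low oxygen, measured 8.64, 8.69 and 8.72 in control and 8.97, 8.77 and 8.85 in caNrf2 skin. The groups did not overlap, and caNrf2 array 1 was here the highest. The difference of 0.18 ± 0.08 did not pass (adjusted p = 0.599, limma), and one of its other probe sets separated the groups too, by 0.24 ± 0.08, while another differed by 0.06. Pdk3 differed by only 0.06 ± 0.07, with no overlap of the groups, and Pdk2 by -0.03 ± 0.09. Pdha1, the catalytic subunit of the complex, measured 11.14, 11.20 and 11.29 against 11.25, 11.16 and 11.23, a difference of 0.00 ± 0.07. Pdk4, a kinase induced by fasting and fatty acids, varied most of all members. It measured 7.53, 8.76 and 8.31 in control and 8.52, 8.39 and 8.19 in caNrf2 skin, so that the control arrays alone spanned 1.22 log2 units. Its difference of 0.17 ± 0.24 became -0.16 without control array 1.

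The caNrf2 arrays did not share 1 pattern over the pathway. Relative to the control mean, the median member stood at -0.02 on caNrf2 array 1, 0.13 on array 2 and 0.09 on array 3, and at 0.05, -0.03 and 0.00 on control arrays 1 to 3. On caNrf2 array 2, 25 of the 31 members (80.6%) exceeded every control array and none lay below all of them, while of all genes above the median probe set 43.8% exceeded and 19.2% lay below. On caNrf2 array 3 the members numbered 19 above (61.3%) and 7 below (22.6%), against 38.2% and 27.4% of those genes. On caNrf2 array 1 they numbered 9 above (29.0%) and 12 below (38.7%), close to the 28.9% and 38.9% of those genes. Without caNrf2 array 1 the median member difference was 0.12 rather than 0.08, and 2 members passed. Groups did not overlap for 18 members, all higher (58.1%), against 21.9% of the genes above the median probe set as higher. With 5 arrays fewer genes overlap in general. Without caNrf2 array 2 the median was 0.05, and groups did not overlap for 8 higher (25.8%) and 5 lower members (16.1%), against 15.5% and 14.6%. Hk1, Slc2a1, Pgm1, Slc16a1, Aldoa, Aldoc, Pdk1 and Pdk3 were above every control array on each of the 3 caNrf2 arrays.

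**Figure D4:**
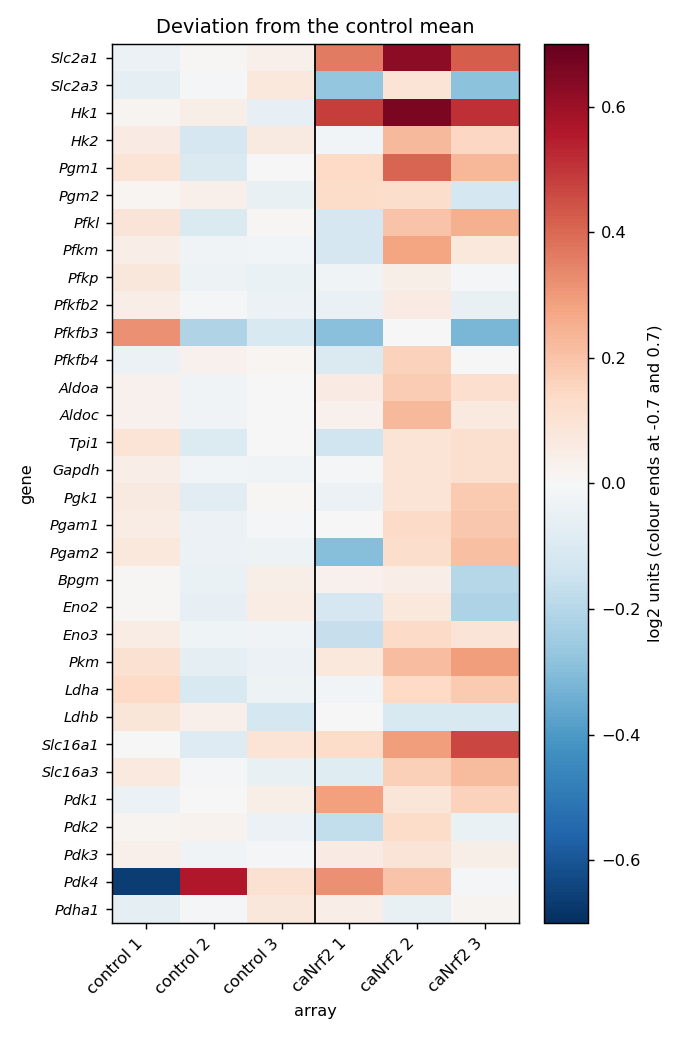
Deviation of each measured glycolysis and glucose uptake gene from its control mean on each of the 6 arrays, in log2 units, in the order of the pathway. Hk1 and Slc2a1 are high on all 3 caNrf2 arrays, many lower glycolysis genes are high on caNrf2 arrays 2 and 3 but not on array 1, and Pdk4 varies among the control arrays.

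Genes around the pathway were read from the same fit by lists. Of 24 other hexose transporters and glycolytic isozymes none passed, 9 were higher and 15 lower, and the median was -0.05. The smallest p-values belonged to Slc2a8, an intracellular hexose transporter, at -0.22 ± 0.08 (adjusted p = 0.485, limma), Ldhd, a dehydrogenase of D-lactate, at -0.23 ± 0.09 and Pklr, the pyruvate kinase of liver and red cells, at -0.18 ± 0.08. None of 9 genes of the pyruvate dehydrogenase complex and pyruvate entry passed (median 0.02), with differences from -0.06 to 0.10. The smallest p-values there were those of Pdpr at 0.10, Pdp1 at 0.09 and Dld at 0.08. None of 19 glycogen genes passed either (median 0.03). Ugp2, which makes the UDP-glucose used for glycogen, differed by 0.19 ± 0.08, the branching enzyme Gbe1 by 0.20 ± 0.10, and Epm2a, the glycogen phosphatase laforin, by -0.29 ± 0.10. Epm2a lay below the median probe set, at 4.38 to 4.99, and its difference was as small as -0.13 with other settings.

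Among 6 gluconeogenesis genes none passed (median -0.04). Pck1, the cytosolic enzyme that makes phosphoenolpyruvate and a gene of fat tissue in skin, measured 9.03, 8.70 and 9.08 in control and 8.43, 8.41 and 8.32 in caNrf2 skin. The groups did not overlap, and the difference was -0.55 ± 0.10 (adjusted p = 0.0666, limma). It passed without control array 2 (adjusted p = 0.0158), with the filter on low values and with an intensity trend. Its adjusted p (limma) reached 0.317 with 1 array left out and 0.164 among the other alternatives, where the difference was as small as -0.39. The 10 measured white adipocyte markers, 9 of them above the median probe set, were all lower in caNrf2 skin. Of the 11746 genes above the median probe set, 5212 were lower. The adipocyte markers had a median of -0.10 and none passed the threshold. Their mean level ran from 10.52 to 10.80 in control and 10.53 to 10.64 in caNrf2 skin, and none was at the level of silent genes. Their part in the Pck1 value was not tested. Pck2 differed by -0.09 ± 0.12 and Fbp2 by 0.09 ± 0.10.

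The pentose phosphate pathway, which branches off after hexokinase, held 2 risen genes among 7 measured, where 0.346% of all genes rose. G6pdx was also listed but was not measured here. Pgd, which makes NADPH from 6-phosphogluconate, measured 11.25, 11.17 and 11.17 in control and 12.14, 12.19 and 12.09 in caNrf2 skin, a difference of 0.94 ± 0.07 (adjusted p = 9.6e-05, limma). Taldo1, the transaldolase that returns carbon to glycolysis, differed by 0.56 ± 0.08 (adjusted p = 0.0122, limma), a call lost without control array 2 or 3 or caNrf2 array 2 (adjusted p up to 0.0902). Transketolase, Tkt, differed by 0.34 ± 0.07 (adjusted p = 0.128). The median of the 7 was 0.12.

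Of 24 measured regulators of glycolysis 1 rose and none fell, where 0.346% of all genes rose and 0.0275% fell, and the median was 0.05. Ppard, a nuclear receptor for fatty acids with known roles in keratinocytes, measured 8.38, 8.32 and 8.34 in control and 8.84, 9.07 and 8.90 in caNrf2 skin. It rose by 0.59 ± 0.08 (adjusted p = 0.0086, limma). The call was lost without any 1 control array (adjusted p up to 0.0672) and when the probe sets of Ppard were averaged, where the difference was 0.29 (adjusted p = 0.299). Arrdc4, an arrestin-like protein induced by glucose, measured 8.55, 8.71 and 8.54 against 8.95, 9.24 and 9.14. The groups were well apart, but the difference of 0.51 ± 0.09 had an adjusted p = 0.0529 (limma). It passed with 6 alternative settings and without caNrf2 array 1 (adjusted p = 0.0201). With 1 array left out its adjusted p (limma) reached 0.285. Txnip, its relative that restrains glucose uptake, differed by only 0.05 ± 0.12. Hif1a, the oxygen-regulated activator of glycolysis genes, differed by 0.13 ± 0.08 and its prolyl hydroxylase Egln3 by 0.24 ± 0.08 (adjusted p = 0.44).

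None of 18 hypoxia targets outside glycolysis passed, 14 were higher and 4 lower, and the median was 0.08. Of the 18, 17 lay above the median probe set, and 55.6% of all genes above it were higher. Ankrd37, a target of hypoxia-inducible factor, measured 6.75, 6.63 and 6.51 in control and 6.14, 6.35 and 6.12 in caNrf2 skin, a difference of -0.43 ± 0.09 without overlap (adjusted p = 0.143, limma). Tfrc, the transferrin receptor, differed in the other direction by 0.37 ± 0.11 (adjusted p = 0.347), Car12, a carbonic anhydrase, by 0.14 ± 0.07, and Vegfa, the classical target, by 0.02 ± 0.11.

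**Figure D5:**
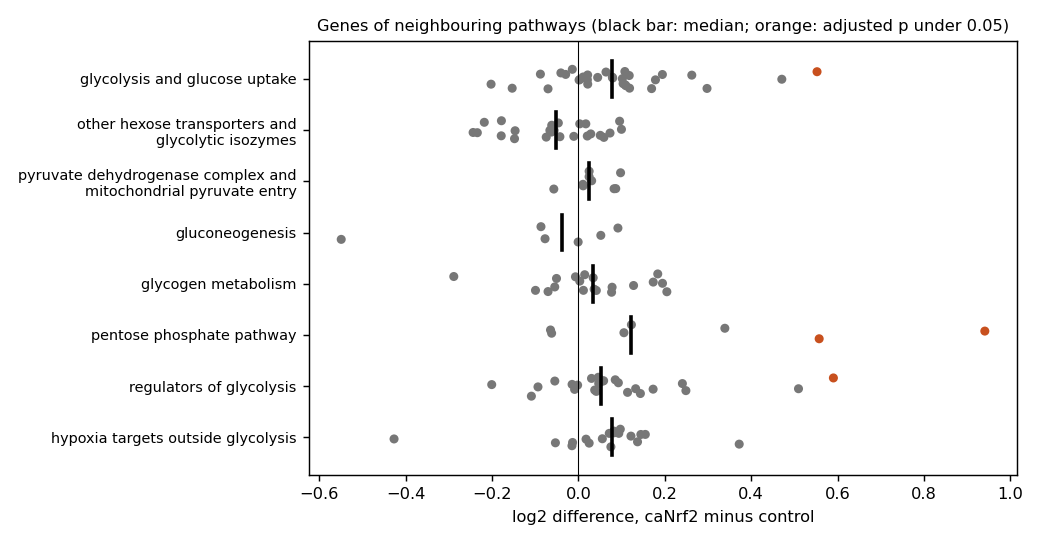
Log2 differences between caNrf2 and control skin of the measured glycolysis and glucose uptake genes on ordinary probe sets and of 7 neighbouring lists, 1 point per gene, with the median as a black bar. Points in orange passed the threshold and are Hk1, Pgd, Taldo1 and Ppard.

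Other cell types of the skin with glycolytic forms of their own held no gene past the threshold. Erythroid markers, beside Bpgm, had a median of -0.05 over 6 genes and a mean level of 6.03 to 6.21 in control and 5.84 to 6.15 in caNrf2 skin. These were 6 of 10 listed genes, and 3 of the 6 lay above the median probe set. Nerve and Schwann cell markers, beside Eno2 and Aldoc, had a median of 0.00 over 9 genes, with 2 at the level of silent genes and Uchl1 highest at 0.50 ± 0.14 (adjusted p = 0.315, limma). Their mean level was 6.19 to 6.24 in control and 6.24 to 6.30 in caNrf2 skin. Neutrophil markers, beside Slc2a3, had a median of -0.23 over 9 genes, with a mean level of 5.61 to 5.79 in control and 5.47 to 5.65 in caNrf2 skin. Only 2 of these 9 lay above the median probe set. Macrophage, endothelial and dermal fibroblast markers had medians of 0.03, -0.08 and 0.00, and brown adipocyte markers 0.00. Ucp1, the uncoupling protein of brown fat, measured 6.99 on caNrf2 array 3 and 4.28 to 4.74 on the other 5 arrays. The part of these cell types in the members' values was not tested.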

How the data were processed

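Whole skin of 3 caNrf2 and 3 control mice was measured on Affymetrix three-prime arrays. The deposited table gives a linear intensity per probe set, which per the submitters' processing notes the authors made with RMA (background correction, quantile normalisation, probe summary). The sources used here name no software or version. RMA hides a shift shared by most genes and compresses low folds. Columns of other series numbered 0.

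Intensities were converted to log2. Of 45101 probe sets, 64 array controls were left out and 34945 of the rest carried 1 symbol (932 several, 9160 none). The brightest probe set stood for each of 18193 genes. limma 3.58.1 (R 4.3.3) compared the groups with eBayes, without a trend or covariate and with 4 residual degrees of freedom. P-values were adjusted over all genes by Benjamini-Hochberg, with a threshold of 0.05. SE and 95% intervals are from that fit. Gapdh was read from a fit with control sets kept (18194 genes). The level of silent genes is the highest value of 3 Y-linked genes, 3.95. The code was tested on simulated data.

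The genes and lists were chosen with earlier results of these data known. Values in every array are given for members past the threshold, for the 8 next by p-value and for the brightest of each role, and up to 3 genes of each pathway list are named by p-value. Vegfa, Hif1a and Txnip were named after their values were seen. Replicates are separate mice. Alternatives were a further quantile normalisation, median centring, a filter on low values, other handling of probe sets and control sets, a trend, robust eBayes, array weights, a replicate block and leaving out each array.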

Additional observations from a re-analysis of the deposited data

How the results depend on the processing

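Of the 32 glycolysis genes followed, 19 kept their sign under every alternative, and no member whose main difference exceeded 0.17 in size changed it. Hk1 passed in every alternative that kept all 6 arrays, with differences of 0.52 to 0.65. The count of members that passed was 2 rather than 1 with median centring, the filter on low values, an intensity trend, robust eBayes and array weights, where Slc2a1 passed too, and it ranged from 0 to 2 when 1 array was left out. Members whose groups do not overlap numbered 5, all higher, after a further quantile normalisation (16.1%, where 4.94% of all genes were higher and 8.26% lower, against 6.23% and 6.88% before it). With 1 array left out they numbered 8 to 18, where the share over all genes rose from 13.1% to between 20.2% and 32.1%. Genes called over the whole table numbered 41 to 89 with 1 array left out. The median member difference ranged from 0.04 to 0.12 with 1 array left out. After a further quantile normalisation the small differences of Pfkp, Pfkfb4, Tpi1, Pgam2 and Pdha1 turned to -0.042, -0.0044, -0.00037, -0.027 and -0.032. That of Slc2a3 turned to 0.023 and that of Dld to -0.043 with the mean of all probe sets. With array weights Pgm2 turned to -0.021 and Txnip to -0.030. The causes were not tested.

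With 1 array left out, differences that changed sign ranged from -0.030 to 0.043 for Pdha1, from -0.088 to 0.16 for Pgam2, from -0.049 to 0.0089 for Pfkfb2, from -0.026 to 0.10 for Tpi1, from -0.022 to 0.042 for Pfkp, from -0.034 to 0.11 for Eno3, from -0.16 to 0.45 for Pdk4, from -0.11 to 0.040 for Pdk2, from -0.020 to 0.18 for Pfkm, from -0.049 to 0.081 for Pfkfb4 and from -0.085 to 0.038 for Bpgm. The ranges were -0.22 to 0.048 for Pck2 and -0.068 to 0.16 for Txnip.

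The replicate numbers in the labels are not stated to mark shared samples. Deviations of arrays with the same number correlated at -0.20, -0.03 and 0.04, and those of arrays with different numbers at -0.16 to 0.19. With 3 arrays per group, these few values cannot settle whether the numbers pair the mice. The fit with the replicate block called 61 genes and 1 member and left the median member difference at 0.08. With 3 arrays per group, the 95% interval lay inside 1.2-fold in both directions for 12 of the 31 members.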
